A study of Mus musculus with 2 samples.

Results

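The Hox cluster genes are the 39 mouse protein-coding genes named Hoxa, Hoxb, Hoxc or Hoxd with a number, out of 21853 protein-coding genes in the GENCODE M21 annotation. They were chosen by symbol alone, with no measured value: 11 in the Hoxa cluster, 10 in Hoxb, 9 in Hoxc and 9 in Hoxd. They were examined here for EP300 in newborn liver by chromatin immunoprecipitation sequencing (ChIP-seq), in which DNA bound by a protein is enriched with an antibody and sequenced. The labels give a single group of 2 replicates: liver tissue of mouse strain B6NCrl at an age of 0 days, with no treatment, no genetic change and sex not collected. The labels name a single biosample and donor for the pair of replicates, and whether these were separate animals or a pool is not stated in them. The spread between the replicates may therefore be technical, and no other condition, tissue or age was there to compare with.

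Hox genes encode homeodomain transcription factors that give cells their position along the head-to-tail axis of the embryo. Within each cluster the genes stand in the order in which they are used: low paralog numbers (Hoxb1, Hoxd1) act early and towards the head, high numbers (Hoxa13, Hoxd13) late and towards the tail. In cells that do not use them the clusters are a textbook target of Polycomb repression, and some of their enhancers lie outside the clusters, for Hoxd in gene-poor regions on both sides. EP300 (p300) is a histone acetyltransferase that is recruited to active enhancers and promoters, and the liver of a newborn mouse holds hepatocytes together with blood-forming cells.

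No Hox gene had an EP300 peak summit within 10 kb of a transcription start site (TSS) in the authors' optimal peak list, the list that passed their test of reproducibility (the irreproducible discovery rate, IDR). The count was 0 of 39 genes, which allows a share of up to 7.69% (3 counts of the total), and the 95% Clopper-Pearson interval reached 9.03%. Among all other protein-coding genes 8338 of 21814 (38.2%) had such a summit. The count was 0 in every cluster, with 0 of 11 Hoxa genes, 0 of 10 Hoxb genes, 0 of 9 Hoxc genes and 0 of 9 Hoxd genes, which in so few genes allows up to 27.3% in Hoxa and 33.3% in Hoxc and Hoxd. Split by paralog number it was 0 of 8 anterior genes (numbers 1 to 3), 0 of 15 central genes (4 to 8) and 0 of 16 posterior genes (9 to 13). These intervals and limits cover the counting of genes only, and genes of a cluster share their surroundings, so 39 genes amount to 4 places in the genome. The share was also 0 of 39 when the window was narrowed to 1 kb or 5 kb. At 50 kb it was 1 of 39, namely Hoxc4, against 64.5% of the other genes.

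**Figure D1:**
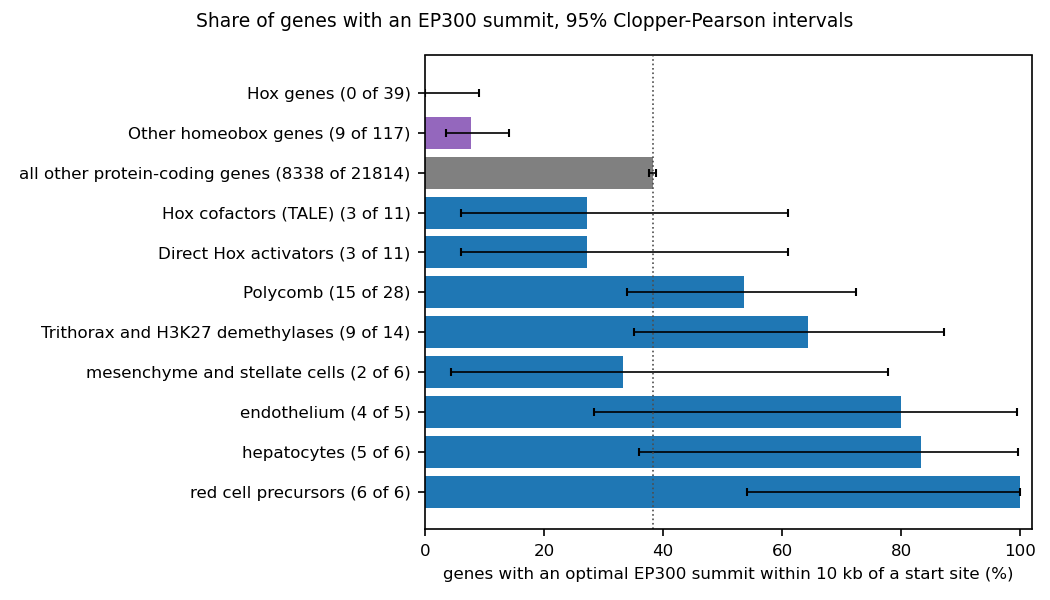
Share of genes with an optimal EP300 summit within 10 kb of a TSS (x axis, %) for the Hox genes, all other protein-coding genes and the other gene lists described in the text; lines are 95% Clopper-Pearson intervals, the counts stand beside each name, and the dotted line marks all other protein-coding genes. The Hox genes are at 0 of 39 and the listed other homeobox genes at 9 of 117, both with intervals below the 38.2% of the remaining genes.

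The nearest optimal summit lay between 33.1 kb and 277 kb from the start sites of the Hox genes, with a median of 140 kb, compared with a median of 22.2 kb for the other protein-coding genes. Hoxc4 was closest at 33.1 kb and Hoxb1 was farthest at 277 kb. Distances ran from 78.4 kb at Hoxa2 to 174 kb at Hoxa13, from 118 kb at Hoxb13 to 277 kb at Hoxb1, from 33.1 kb at Hoxc4 to 146 kb at Hoxc13 and from 99.2 kb at Hoxd1 to 194 kb at Hoxd13. In Hoxa, Hoxc and Hoxd the nearest summit was on the side of the low-numbered genes. In Hoxb it was on the Hoxb13 side for all genes except Hoxb1, whose nearest summit lay beyond its own end of the cluster. The genes of a cluster lie in a row and mostly share their nearest summit, so these distances are not independent.

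**Figure D2:**
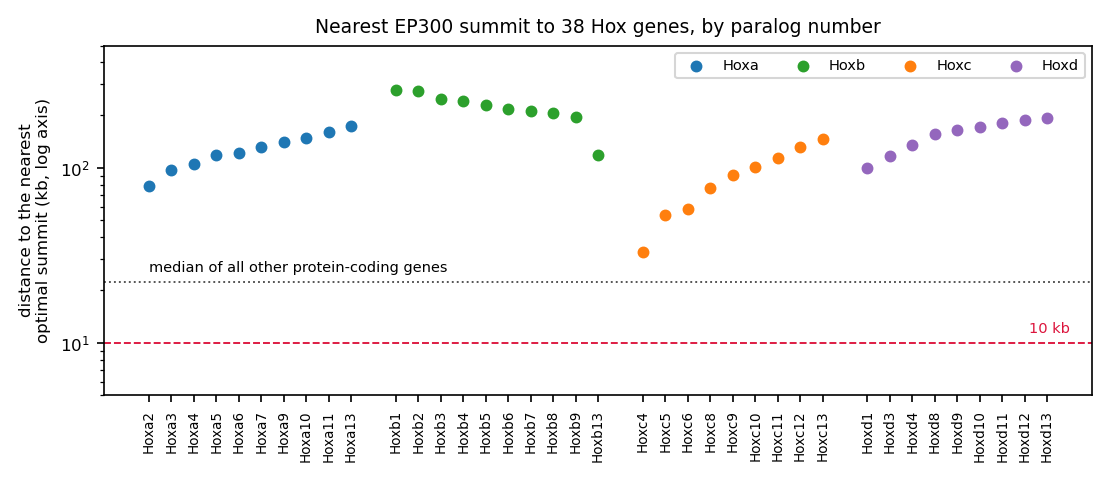
Distance from 38 of the 39 Hox genes to the nearest optimal EP300 summit (y axis, kb, log scale), ordered by cluster and paralog number; the dashed line is the 10 kb window and the dotted line the median of all other protein-coding genes (22.2 kb). The 38 genes shown lie above both lines, from 33.1 kb (Hoxc4) to 277 kb (Hoxb1).

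The clusters themselves were without a summit from end to end. On build mm10 the outer ends of the Hox genes span 105 kb of chromosome 6 (Hoxa), chr11:96194316-96368256 (Hoxb, 174 kb), chr15:102921103-103036852 (Hoxc, 116 kb) and chr2:74668310-74765142 (Hoxd, 96.8 kb). In these 492 kb neither the optimal list nor the stricter conservative list held a summit. The optimal list has 1.05 summits per 100 kb over chromosomes 1 to 19 and X, a density at which 492 kb would hold 5.16, and a count of 0 allows up to 0.610 per 100 kb. The stretch without a summit reached well past each cluster. It measured 534 kb around Hoxa, 567 kb around Hoxb, 442 kb around Hoxc and 951 kb around Hoxd, against a median of 16.0 kb between neighbouring optimal summits. Of all such intervals 3.31% were at least as long as that of Hoxa, 3.15% as that of Hoxb, 4.11% as that of Hoxc and 1.72% as that of Hoxd. These shares count intervals, and a long interval covers more of the genome than a short one. The share of the genome that lies in stretches this long is therefore higher. Long stretches without a summit were common elsewhere, mostly where genes are sparse: of 25473 windows of 100 kb, 64.5% held none. Of the 119 windows with the start sites of at least 8 protein-coding genes, 20 (16.8%) held none, and Hox genes were the leading family in 2 of these 20.

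Around the clusters the optimal list held 7 summits within 200 kb, at 5 places, and all 5 places lie outside any Hox gene. Over the 1600 kb of flanks this was 0.438 per 100 kb, where the density of the genome would give 16.8 summits. The sequences at 4 of the places are shown because they are the EP300 peaks nearest to Hoxa, Hoxc and Hoxd. Each is the forward strand of mm10 for 75 bases on each side of the summit, and capitals mark matches, within 50 bases of the summit and on either strand, to the GATA motif (GATA with A or T before it and A or G after it) or the E-box (CANNTG).
Hoxa flank, chr6:52086337-52086487: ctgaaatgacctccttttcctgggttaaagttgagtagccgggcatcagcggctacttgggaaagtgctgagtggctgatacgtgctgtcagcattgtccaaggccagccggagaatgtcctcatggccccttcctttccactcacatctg
Hoxc flank, chr15:103067430-103067580: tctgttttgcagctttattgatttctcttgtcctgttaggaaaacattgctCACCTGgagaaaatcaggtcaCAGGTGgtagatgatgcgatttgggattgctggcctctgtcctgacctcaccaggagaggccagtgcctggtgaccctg
Hoxd flank in Mtx2, chr2:74862101-74862251: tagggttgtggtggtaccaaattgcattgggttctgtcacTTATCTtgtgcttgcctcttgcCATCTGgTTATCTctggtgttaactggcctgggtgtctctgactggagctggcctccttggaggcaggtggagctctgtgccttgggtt
Hoxd far flank, chr2:74933290-74933440: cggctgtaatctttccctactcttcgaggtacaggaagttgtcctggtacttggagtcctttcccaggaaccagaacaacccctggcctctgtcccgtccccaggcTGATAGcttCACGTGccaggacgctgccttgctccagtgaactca

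The Hoxa peak (chr6:52086220-52086603, intergenic, summit 78.4 kb from the TSS of Hoxa2) had a signal value of 54.0 and rank 8499 of 26844 optimal peaks. The signal value is the authors' score for each peak, on a scale that is not stated, and rank 1 is the highest. The median over the optimal list was 38.3. Replicate 1 gave 39.1 there (rank 7753 of its list) and replicate 2 gave 14.3 (rank 12144), so both lists placed it well inside their strongest 26844 peaks. The summits of the replicates differed by 25 bases from each other. Its window held neither of the motifs shown in capitals.

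The Hoxc peak (summit at position 103067505 of chromosome 15, intergenic, 30.7 kb beyond the Hoxc4 end) was the closest to any Hox gene, and Hoxc4 was its nearest protein-coding gene, at 33.1 kb. It was weaker, with a signal value of 27.8 and rank 19194. Replicate 1 gave 16.3 (rank 25284) and replicate 2 gave 9.06 (rank 23220), near the end of the strongest 26844 in both. The Hoxd cluster had 2 peaks, both on the Hoxd1 side. The nearer lay 97.0 kb out, in an intron of Mtx2, which encodes a protein of the mitochondrial outer membrane. It had a signal value of 45.8, with 34.3 in replicate 1 and 8.16 in replicate 2. The farther lay 168 kb out, between genes, also at 45.8, with 35.4 in replicate 1 and 10.8 in replicate 2. Mtx2 was the nearest protein-coding gene to both, with its TSS 36.4 kb and 108 kb away. The Mtx2 peak is the one with the most motif matches in the window, 2 GATA matches and 1 E-box.

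The remaining 3 peaks overlap one another at the start of Atp5g1, the gene of a subunit c of mitochondrial ATP synthase, 118 to 119 kb beyond Hoxb13. Their summits lay 59, 299 and 539 bases upstream of the Atp5g1 TSS, with signal values of 54.6, 40.5 and 8.99. Replicate 1 was high there (49.0 at the first summit, rank 5556) and replicate 2 low (4.60, rank 131150). At the second summit replicate 1 gave 36.2 (rank 8635) and replicate 2 gave 7.42 (rank 33701). None of the 3 was in the conservative list, which held the other 4 flank peaks.

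All 7 flank peaks overlapped a peak of both replicate lists by at least 1 base (7 of 7, interval 59.0% to 100%), against 95.7% of all optimal peaks. The optimal list was itself made from both replicates, so this match is no independent check. Counting only the highest 26844 peaks of each replicate, it was 3 of 7 (42.9%). The 3 Atp5g1 peaks overlap and share their replicate peaks, so the 7 are not independent and the interval is too narrow. GATA matches stood within 50 bases of the summit in 4 of the 7 peaks, against 40.3% of all optimal peaks, and an E-box in 5 of the 7, against 44.5%. The 4 with GATA were both Hoxd peaks and the first and second Atp5g1 peak. The motif for Hox proteins bound with their Pbx partners (TGATTNAT) and the homeodomain core TAATTA were in none of the 7, and in 1.39% and 1.61% of all optimal peaks. Matches describe letters in a window and do not show which protein bound.

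By side, 4 of the 7 summits were on the low-numbered side of Hoxa, Hoxc or Hoxd and 3 beyond Hoxb13. None lay in the 200 kb beyond the outer ends of Hoxa13, Hoxc13, Hoxd13 or Hoxb1. The first optimal summit on those sides was 359 kb beyond Hoxa13, 296 kb beyond Hoxc13, 757 kb beyond Hoxd13 and 275 kb beyond Hoxb1. Summit density was lowest next to the clusters. It was 0.375 per 100 kb in the first 100 kb on either side and 0.5 in the second, then 1.75 from 200 to 300 kb, 1.62 from 300 to 400 kb, 2.88 from 400 to 600 kb, 1.56 from 600 to 800 kb and 2.62 from 800 to 1000 kb. The last 5 are above the genome's 1.05.

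**Figure D3:**
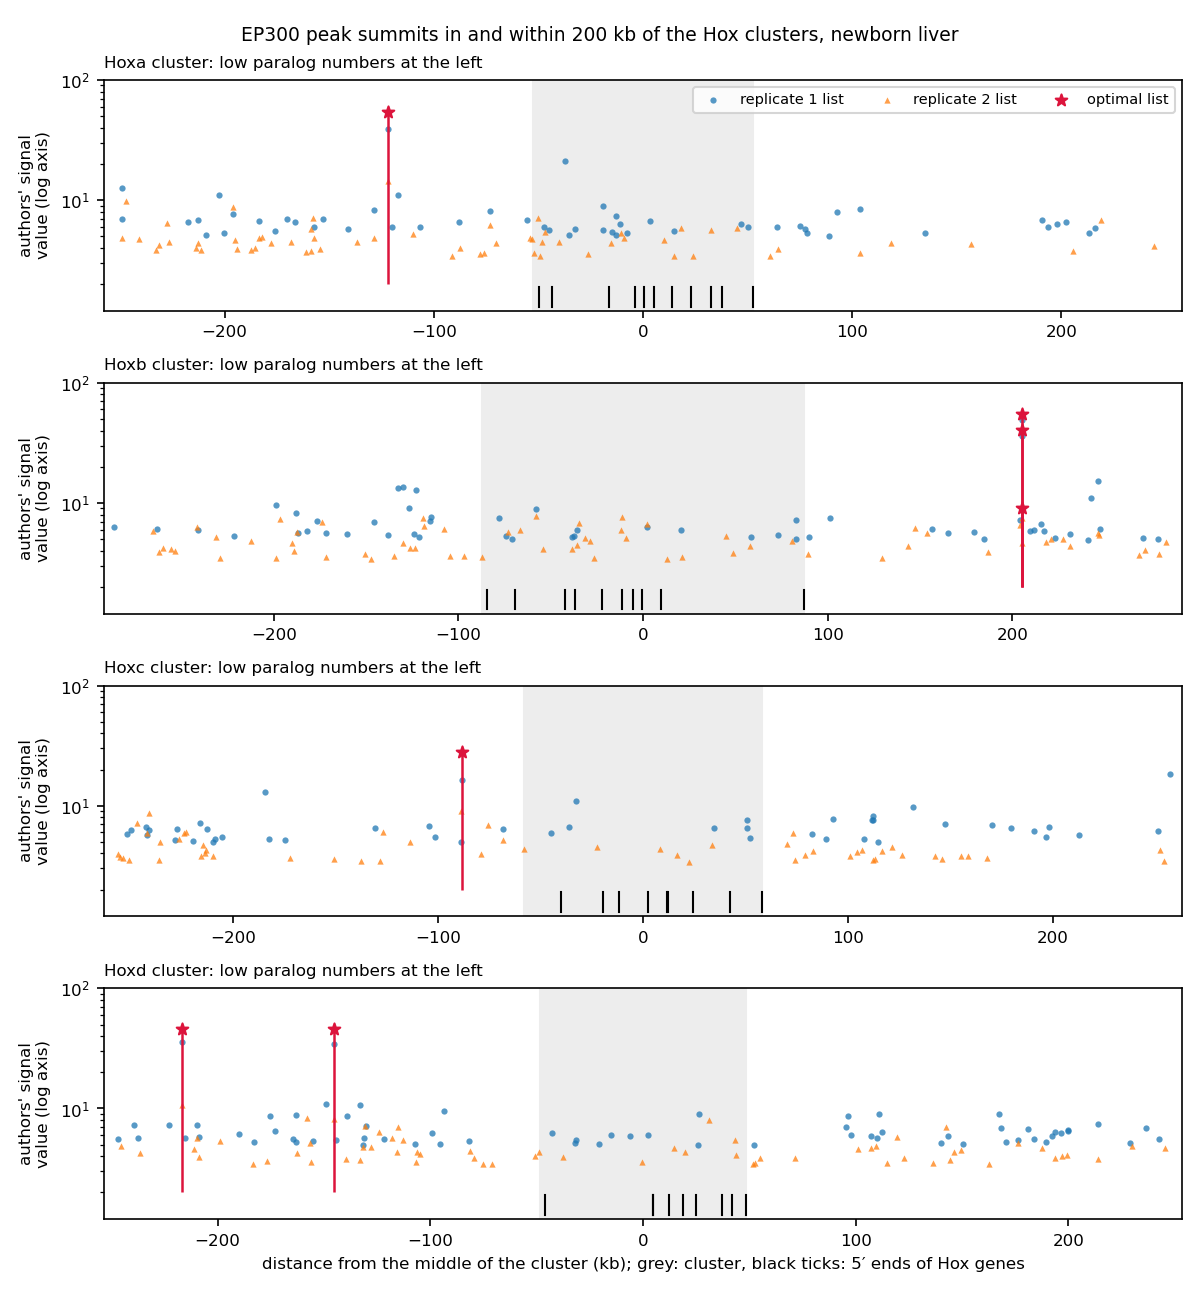
EP300 peak summits in each Hox cluster (grey) and the 200 kb on each side, by distance from the middle of the cluster (x axis, kb) and the authors' signal value (y axis, log scale; each list has its own scale), with 5′ ends of Hox genes as black ticks and low paralog numbers at the left. All 7 optimal summits (red stars) lie outside the grey areas, where the replicate lists (blue, orange) hold weak peaks, the highest at 21.1 in replicate 1 within Hoxa.

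The genes beside the clusters were mostly without a summit too. Of 18 other protein-coding genes with a start site inside or within 200 kb of a cluster, 2 had an optimal summit within 10 kb (11.1%, against 38.2% of all protein-coding genes other than Hox), Atp5g1 and Cbx5. Cbx5, the gene of heterochromatin protein HP1 alpha, has its nearest start site 178 kb beyond Hoxc4. Its peak of 37.4 lay 84 bases from another of its start sites, farther out than the 200 kb flank. Evx1 and Evx2, the homeobox genes next to Hoxa13 and Hoxd13, had none within 200 kb (nearest 227 kb and 203 kb). Mtx2, Lnpk, Skap1, Skap2, Calcoco2, Ttll6 and Igf2bp1 had none within 10 kb.

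Below the optimal list, the replicate lists hold up to 300000 peaks each, down to weak ones, and do reach into the clusters. Replicate 1 had 45 summits there and replicate 2 had 48, where the density of each list would give 57.6. The shortfall was larger among strong peaks. Of the highest 26844 peaks, replicate 1 had 1 and replicate 2 had 0 in the clusters, against 5.16 at the density of the genome. Of the highest 100000 they had 8 and 18, against 19.2. Of the highest 200000 they had 25 and 35, against 38.4. Replicate 2 came nearest to the density of the genome at 100000 and 200000 peaks, and both replicates were below it at every depth shown.

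**Figure D4:**
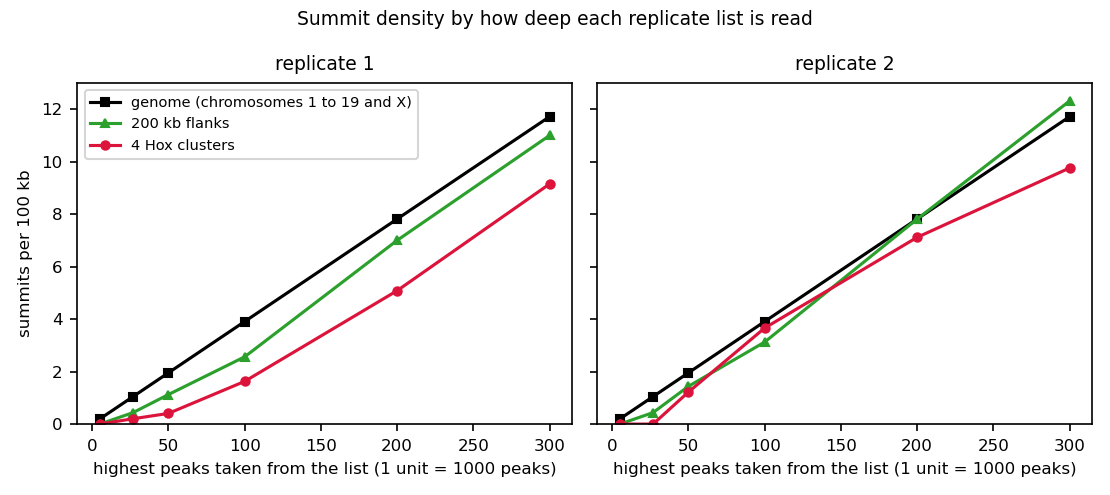
Summits per 100 kb (y axis) among the highest peaks of each replicate list (x axis, in units of 1000 peaks, lists ranked by the authors' signal value) in the 4 Hox clusters, the 200 kb flanks and the genome. At 26844 peaks the clusters hold 1 summit in replicate 1 and 0 in replicate 2, and at 300000 they hold 45 and 48, against 57.6 at the density of the genome.

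The weak peaks seldom recurred. Only 6 of the 45 in replicate 1 (13.3%) overlapped a peak of replicate 2, against 29.3% over the whole list, and those 6 were 12.5% of the 48 in replicate 2, against 28.6%. The whole lists include strong peaks, which the clusters nearly lack. Among peaks ranked below the highest 26844, 6 of 44 and 6 of 48 recurred, against 23.3% and 22.4% of the lists. Of the 6 places, 5 were in Hoxb and 1 in Hoxa. In 4 of them the summits of the replicates lay within 48 bases of each other. The strongest was in the intron of Hoxb3, an anterior gene of hindbrain patterning, where the antisense gene Gm11536 also runs. There replicate 1 gave 8.98 (rank 60864) and replicate 2 gave 7.79 (rank 30522), and the pooled list, called from the reads of the pair, gave 18.4 (rank 34243). A second stood between Hoxb9 and Hoxb8, with 6.33 in replicate 1 and 6.61 in replicate 2 and summits 4 bases apart. Another lay 1.42 kb upstream of Hoxb4, at 5.91 and 4.46, with summits 6 bases apart. All 6 are below the signal values at which the strongest 26844 peaks of each list end, 15.5 in replicate 1 and 8.32 in replicate 2, and their −log10 q-values in the replicate lists reached at most 0.842, in the Hoxb3 intron.

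The cluster peak of highest signal was in replicate 1 alone. It lay in an intron of Hoxa3, where the gene model Gm28308 also runs, 6.17 kb from the TSS of Hoxa2, with a signal value of 21.1, rank 18028 and a −log10 q-value of 2.38. The pooled list had it at 24.3 (rank 24139). Replicate 2 had no overlapping peak, and the place is in neither IDR list. Its sequence is shown beside that of the Hoxb3 intron, the place both replicates share. Strand, build and capitals are as above, and the windows hold 1 E-box (Hoxb3) and none of either motif (Hoxa3).
Hoxa3 intron, replicate 1 only, chr6:52170922-52171072: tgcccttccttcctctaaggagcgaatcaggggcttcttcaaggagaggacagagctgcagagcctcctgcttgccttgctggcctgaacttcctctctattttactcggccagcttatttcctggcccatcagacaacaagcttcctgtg
Hoxb3 intron, both replicates, chr11:96339346-96339496: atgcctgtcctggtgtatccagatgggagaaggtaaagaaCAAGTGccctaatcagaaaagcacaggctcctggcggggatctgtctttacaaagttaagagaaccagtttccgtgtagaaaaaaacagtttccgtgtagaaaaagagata

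Over all weak peaks in the clusters, shares with a motif were set beside those of the lists they come from. GATA matches stood in 6 of 45 replicate 1 summits (13.3%, list 25.5%) and in 8 of 48 replicate 2 summits (16.7%, list 25.4%). E-boxes stood in 13 of 45 (28.9%, list 39.4%) and 14 of 48 (29.2%, list 39.4%). The Hox and Pbx motif was in 1 of 45 and 0 of 48. These counts are small, and some places enter both.

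At the start sites themselves the replicate lists held few peaks, and none that recurred. No Hox gene (0 of 39) had summits in both replicate lists within 1 kb of a TSS, against 40.3% of the other protein-coding genes. In replicate 1 there were 4, Hoxb2, Hoxb4, Hoxd3 and Hoxd4, against 55.6% of the other genes, with signal values of 5.02, 5.32, 5.98 and 5.94 and ranks from 179480 to 284817. In replicate 2 there were 6, among them Hoxa7, Hoxa9, Hoxa10, Hoxb6 and Hoxd9, against 48.5%. Hoxb6 was the highest of these at 7.67 (rank 31450), and Hoxa9 stood at 5.91 (rank 60919). The 2 sets of genes have no member in common, and no Hoxc gene is in either. Within 10 kb, by contrast, 29 of 39 Hox genes (74.4%) had a summit in both lists, against 80.6% of other genes. In dense clusters a window of 10 kb takes in the same weak peak for several genes, and Hoxc8 was the 1 gene with no summit in either list.

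Hox gene starts were by the median richer in CpG dinucleotides than those of other genes. The gene start here is the outer 5′ end of the gene. At some genes, such as Hoxb2, Hoxc5 and Hoxc6, it is not the TSS used for the summits. In the 500 bases on each side of the gene start the ratio of observed to expected CpG had a median of 0.678 over the 39 genes (0.181 at Hoxb2 to 0.996 at Hoxa5), against 0.551 over the other protein-coding genes. By cluster the median was 0.689 in Hoxa, 0.472 in Hoxb, 0.651 in Hoxc and 0.721 in Hoxd. At other genes the share with an optimal summit rose with this ratio, from 17.1% under 0.2 to 54.7% between 0.8 and 1. Of the 39 Hox genes, 25 had a ratio of at least 0.6, a class in which 52% of the other genes had a summit, and 0 of these 25 did, which allows up to 12.0%. Hoxa5, a central gene needed for lung and airway development, had the highest ratio of the 39 and is not typical of them. It is shown beside Atp5g1, the gene nearest to Hoxb with EP300 at its promoter. The 200 bases before each gene's start are given 5′ to 3′ on the gene's own strand (minus for both, mm10), with CpG in capitals. They hold 22 CpG at Hoxa5 and 14 at Atp5g1, and the same stretch holds 28 at Hoxd13 and 8 at Hoxb4.
Hoxa5 promoter, chr6:52204588-52204787: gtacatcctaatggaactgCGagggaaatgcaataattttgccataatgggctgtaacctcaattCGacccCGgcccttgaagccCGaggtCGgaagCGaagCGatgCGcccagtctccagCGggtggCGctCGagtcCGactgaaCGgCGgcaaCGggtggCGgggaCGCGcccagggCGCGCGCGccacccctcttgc
Atp5g1 promoter, chr11:96075671-96075870: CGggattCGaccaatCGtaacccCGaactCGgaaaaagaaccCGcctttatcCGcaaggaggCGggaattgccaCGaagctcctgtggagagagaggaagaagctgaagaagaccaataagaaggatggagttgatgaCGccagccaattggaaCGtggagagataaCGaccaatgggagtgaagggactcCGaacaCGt

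**Figure D5:**
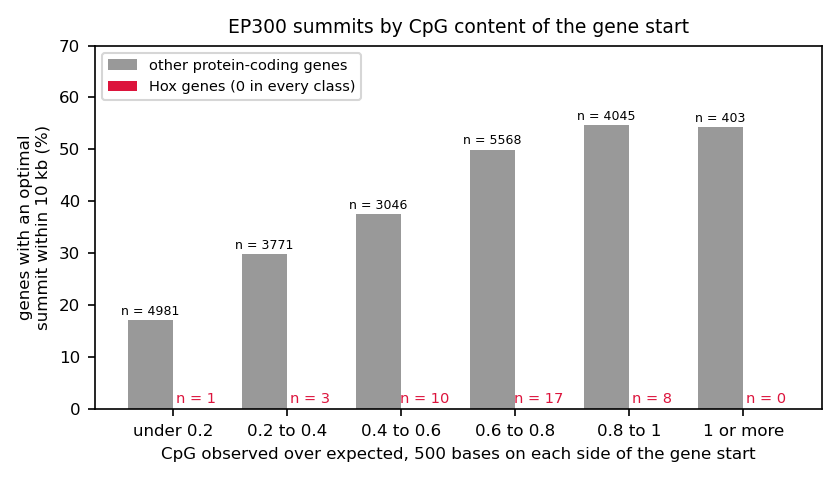
Share of protein-coding genes other than Hox with an optimal EP300 summit within 10 kb (grey bars, y axis, %) by the observed over expected CpG ratio at the gene start (x axis), with the number of genes in each class above the bars and the number of Hox genes in red. The grey bars rise from 17.1% to 54.7%, while the Hox count is 0 in each class, including the 17 genes between 0.6 and 0.8 and the 8 between 0.8 and 1.

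The clusters also hold 43 annotated genes that do not code for protein, and none had an optimal summit within 10 kb (0 of 43, which allows up to 6.98%), against 18% of all such genes. The nearest was 52.6 kb away, at Mir615 in Hoxc. They include the long RNAs Hotair (120 kb to the nearest summit) and Haglr (99.3 kb). In the replicate lists 6 of the 43 had a summit within 1 kb of their start in replicate 1 (14.0%, against 22.1% of all such genes) and 17 in replicate 2 (39.5%, against 21.9%). Those with a summit in both were 3 (6.98%, against 11.1%): Mir10a, Hoxb3os and the small RNA Gm27861. Only at Mir10a did the peaks of the replicates overlap. Some of the 43 genes lie close together and share a summit, as Gm27861, Gm27868 and Gm27477 do in replicate 2, so they are not separate places. The Mir10a summit is the weak place upstream of Hoxb4 described above. The Mir10 and Mir196 genes are microRNA families that repeat between clusters, as the Hox genes do, while Mir615 lies in Hoxc alone. The 5p mature forms of these families are shown with the seed (bases 2 to 8) in capitals, from RefSeq on GRCm38.p6.
miR-10a-5p (Mir10a, Hoxb): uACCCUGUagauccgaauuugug
miR-10b-5p (Mir10b, Hoxd): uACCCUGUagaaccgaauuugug
miR-196a-5p (Mir196a-1 in Hoxb, Mir196a-2 in Hoxc): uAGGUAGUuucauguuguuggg
miR-196b-5p (Mir196b, Hoxa): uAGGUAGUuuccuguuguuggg

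Mir10a had a weak summit within 1 kb in both replicate lists, and Mir10b, which has the same seed, in neither. The Mir196 genes, which share the other seed, had none in either list. The nearest optimal summits were 241 kb from Mir10a, 136 kb from Mir10b, and 189, 94.2 and 144 kb from Mir196a-1, Mir196a-2 and Mir196b.

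Lists of other homeobox genes and of genes that act with or on Hox genes were counted in the same way. In a list of homeobox gene families outside the clusters, chosen by symbol, 9 of 117 genes (7.69%) had an optimal summit within 10 kb, also below the 38.2% of protein-coding genes. The list takes in the Pax genes and leaves out the TALE genes and other families such as HNF1 and Onecut, so it does not stand for all homeobox genes. The strongest peaks were at Prrx2 (174), Nkx1-2 (103), Lhx3 (72.9) and Dbx2 (67.3), from 3.63 to 7.47 kb from a TSS. Of 11 genes for homeodomain proteins of the TALE class, 3 had a summit (27.3%, interval 6.02% to 61.0%): Tgif1 (29.7), Meis1 (27.9) and Pbx2 (18.8). This list takes in the Pbx, Meis and Pknox cofactors that bind DNA together with Hox proteins, and also Tgif1 and Tgif2. Of 11 genes for upstream activators of Hox genes, growth factor genes among them, 3 did (27.3%, interval 6.02% to 61.0%). These were the retinoic acid receptor genes Rara (39.7) and Rarg (26.9) and the growth factor gene Fgf8 (33.8). At the Rara peak replicate 2 had no overlapping peak. The caudal genes Cdx1, Cdx2 and Cdx4 and the hindbrain factor gene Egr2 had none.

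Polycomb proteins keep Hox clusters silent and Trithorax proteins keep them active. Of 28 Polycomb genes 15 had a summit (53.6%), while Aebp2, Bmi1 and Cbx2, among others, had none. The strongest peaks were those of Rbbp4 (126), Cbx7 (82.5), Kdm2b (58.9) and Eed (57.5). They lay from 0.793 kb (Kdm2b) to 4.73 kb (Cbx7) from a TSS. Of 14 genes for Trithorax proteins and H3K27 demethylases 9 had a summit (64.3%), while Ash1l, Kdm6a, Kmt2a and Kmt2b had none. The strongest peaks were those of the methyltransferase gene Kmt2d (193), Rbbp5 (146), the demethylase gene Kdm6b (50.1) and Wdr5 (47.8). They lay from 0.127 kb (Rbbp5) to 9.41 kb (Kmt2d) from a TSS. The Kmt2d peak of 193 was outside the gene, and a nearer summit stood 0.436 kb from a TSS of Kmt2d. The intervals of these small lists are wide and include 38.2%. As a check of the tissue label, 6 of 6 red cell precursor genes and 5 of 6 hepatocyte genes had a summit, among them Alas2 (390) and Ahsg (173). Of 5 endothelial genes 4 did, and of 6 mesenchymal genes 2, Reln (505) and Des (27.7). The liver was immunoprecipitated as whole tissue, so a cell type that is rare in it and a place that is weakly bound cannot be told apart.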

How the data were processed

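EP300 ChIP-seq of newborn mouse liver (B6NCrl, 0 days, 1 group of 2 replicates) was deposited as 5 peak lists on mm10: 1 per replicate, 1 pooled, and optimal and conservative IDR lists. Per the file headers, the authors made the lists from aligned reads and 1 control alignment. Not given in the sources used here are the aligner, the caller, the IDR threshold and any version. Column 7, the signal value, is a score by the authors on an unstated scale, used only within a list. Column 9 is the −log10 q-value in the deposited replicate lists. In the deposited pooled and IDR lists it falls below 0 for some peaks and was treated as a score. The lists give no read counts, so depth is unknown and intervals cover counting only. The series held 0 columns of other samples.

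Summits on the chromosomes (1 to 19, X, Y) were placed by summit position (column 2 plus column 10), 1-based, with GENCODE M21. A gene was called when a summit lay within 10 kb of the TSS of a protein-coding transcript. Scripts used Python 3.11.15, pandas 2.3.3, numpy 2.4.6, scipy 1.17.1 and pysam 0.24.0, and the gene count was tested on simulated data. Sequence came from GRCm38. The members and lists were chosen with earlier results of these data known, so no list was tested; shares are set beside those of all other genes. All Hox genes are counted; a few items that the rule below would name are not reported here. The rule for naming genes took, in the flanks, the nearest gene to each summit, and in other lists up to 4 members with the strongest peak and up to 4 without, in alphabetical order. Its part for Hox start sites by the mean rank over both replicates could not be applied, since no gene had a peak in both; the genes with a peak in either replicate are named instead, a choice made after seeing the values. Alternatives were other windows and lists, 1 replicate left out, and other match rules.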

Additional observations from a re-analysis of the deposited data

How the results depend on the processing

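The count of 0 of 39 Hox genes within 10 kb was also 0 in the conservative list, the top 50% of optimal peaks, the highest peaks of replicate 2 alone, windows of 1 and 5 kb, nearest TSS only, gene start only and all transcripts (the last chosen after seeing the data). It was 1 with the window of 50 kb (Hoxc4) and 1 with the highest 26844 peaks of the pooled list (Hoxa2). Leaving out a replicate gave 0 to 1 Hox genes, 0 to 1 Hoxa genes and 0 to 1 summits inside the clusters, the 1 being the Hoxa3 intron peak of replicate 1, which the pooled list also gave (1 summit, 1 Hoxa gene). The Hoxc count was 1 at 50 kb, and Hoxb and Hoxd stayed at 0 in all 11 alternatives. Flank summits were 7, 4 in the conservative list, 3 in flanks of 100 kb and 34 in flanks of 400 kb, and 5 to 7 otherwise (among these, overlapping peaks taken as 1 place and peaks with column 9 below 0 left out were chosen after seeing the data). The match of flank peaks in both replicates was 42.9% (3 of 7) when only the highest 26844 peaks of each replicate counted, and 71.4% with summits within 100 bases or an overlap of 50%. The count at start sites was 29 within 10 kb, and leaving out a replicate gave 4 to 6. No paired analysis was possible because there is 1 group. Without read counts, a place below the lists' lowest signal cannot be told from an unbound one, and 2 libraries under the same biosample label limit what a 0 shows.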
